A study of Mus musculus with 6 samples.

Results

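The genes described here are 39 lysosome and autophagy genes, picked by symbol from a table of 23067 genes measured by bulk RNA sequencing in mouse dorsal striatum. All 39 had exactly 1 row in the table. The members cover 13 acid hydrolases, 3 cofactors or carriers of hydrolases, 6 membrane or sterol-handling proteins, 4 subunits of the proton pump and 13 autophagy genes. The rule that picks them names genes by function and uses none of their levels, though it was written with earlier results of these data known.

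The samples were 3 libraries from mice homozygous for the knock-in allele Lrrk2 G2019S and 3 from wild-type mice (Lrrk2 WT/WT), all dissected on postnatal day 21. The knock-in changes 1 residue of the kinase LRRK2, whose G2019S form is a cause of inherited Parkinson's disease, in every cell that makes the protein. The labels give neither the strain nor whether each library came from its own animal, so the p-values measure the spread between these libraries, which may be technical. All 6 titles say male, yet Xist, the RNA that silences an X chromosome in females, stood between 27.2 and 39.3 FPKM in the 6 libraries. Gla and Lamp2 are the X-linked members. Whole tissue was sequenced, so fewer cells of a type and less RNA per cell cannot be told apart.

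Lysosomes are acidic organelles in which hydrolases break down proteins, lipids and glycogen. The vacuolar ATPase pumps in the protons, and autophagy delivers cytoplasm to them in double-membrane vesicles called autophagosomes. LRRK2 is recruited to damaged lysosomes, where it phosphorylates Rab GTPases, and mutations in several lysosomal genes are linked to Parkinson's disease or to neuronal storage disorders. Many lysosomal genes share a promoter element bound by the transcription factor TFEB, itself among the members.

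That element, called CLEAR, has the core CACGTG. It was searched on both strands in RefSeq promoter windows of 300 bases (250 before and 50 from each start, build GRCm38.p6). A window was given for 33 of the 39 members, in 37 windows. The core was present for 12 of the 33 members (36.36%), in 32.43% of their windows against 7.15% of all 32851 windows. Lengthened by 1 base to TCACGTG, a form that contains the core, it was present for 10 members, in 27.03% of their windows against 3.77% of all. Among the tested genes that had a window, 9622 in number, 11.9% held the core and 7.05% held TCACGTG. The complete CLEAR palindrome, which contains both shorter forms, was in none of the 33 members and in 0.33% of all windows. These are matches of letters and do not show binding.

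Stretches from the promoters of 7 members are shown for their matches to that element, since they span the membrane, enzyme and pump roles and include Atp6v1a and Atg7, whose levels are described further on. Capitals mark TCACGTG or its reverse complement, and a run of 8 capitals is both at once. Lamp1 carries 4 cores within 73 bases and Gla 2 within 65 bases. Each sequence is on the gene's own strand and ends before the RefSeq start. The stretches of Mcoln1, Ctsd, Atp6v1a and Atg7 lie inside the longer gene models of GENCODE and are therefore cut to 29 bases. GENCODE starts Atg7 far upstream of its stretch, at base 114643097 of chromosome 6. The match of Atg7 thus lies well inside that model, before a downstream RefSeq start.
Lamp1 (chr8:13159087-13159159, plus strand): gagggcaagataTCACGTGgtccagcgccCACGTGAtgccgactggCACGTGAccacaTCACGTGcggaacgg
Gla (chrX:134601181-134601245, minus strand): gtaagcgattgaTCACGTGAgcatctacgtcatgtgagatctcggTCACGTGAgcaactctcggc
Glb1 (chr9:114401017-114401047, plus strand): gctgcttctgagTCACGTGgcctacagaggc
Mcoln1 (chr8:3500463-3500491, plus strand): ggcgccccgcTCACGTGAccgcggcgcat
Ctsd (chr7:142387908-142387936, minus strand): cgcccgcgtcTCACGTGAcccgttgaggg
Atp6v1a (chr16:44139373-44139401, minus strand): tttttttaaaTCACGTGAtaggcttaacg
Atg7 (chr6:114670952-114670980, plus strand): catattggtggTCACGTGtgcagtaagtg

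Levels are given as FPKM, fragments scaled to transcript length and library size, so they can be set side by side between genes. All 39 members passed the minimum mean of 1 FPKM over the 6 libraries used for testing, through both genotypes. Their mean levels ran from 2.33 FPKM for Gla to 509 FPKM for Psap, with a median of 19.2 FPKM, against 5.85 FPKM for all 14156 tested genes. Of the 39, 33 lay above that median of all genes and 13 lay among the highest 10% of tested genes. Together they took between 0.558% and 0.639% of all FPKM of a library. Pairs of libraries correlated over genes at 0.983 to 0.990, and the summed FPKM per library lay between 314146 and 335508.

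**Figure D1:**
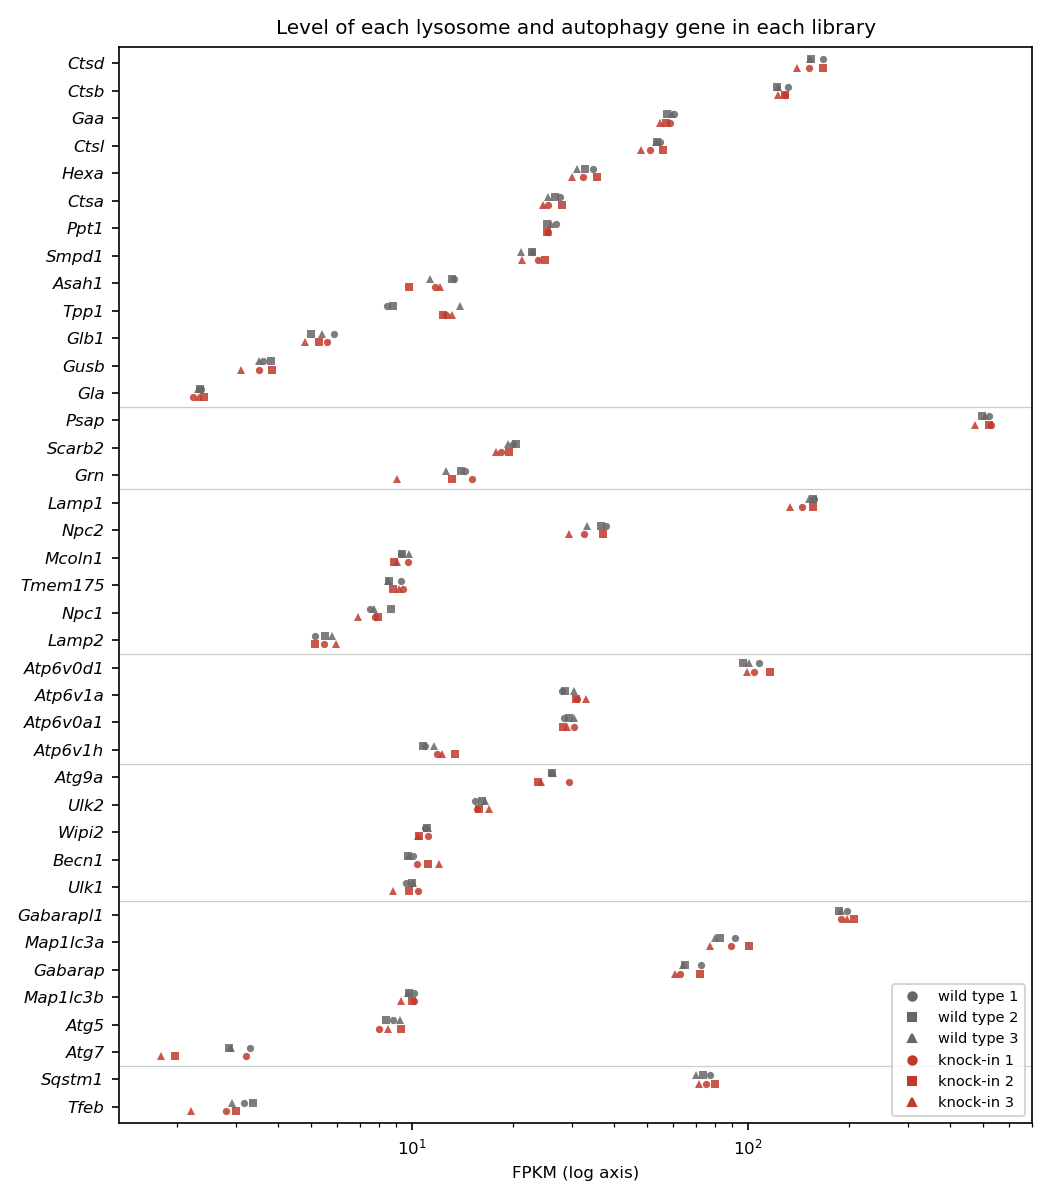
Level of each of the 39 genes in each library, in FPKM on a log axis, with wild type in grey above and knock-in in red below on each line, and grey rules between roles. Psap stood highest at about 509 FPKM and Gla lowest at 2.33 FPKM, and the 6 points of most genes lie close together beside the distance between genes.

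Genotypes were compared on log2(FPKM + 1) with limma over all 14156 tested genes, two-sided, and a gene was called at a Benjamini-Hochberg adjusted p under 0.05. This scale understates changes of genes at low levels. Of the 39 members, 0 were called, where 0.0212% of all tested genes were. The limma adjusted p-values of the members lay between 0.997 and 0.998. At an unadjusted p under 0.05, 2 members passed, both higher in knock-in, against 4.27% of all tested genes (1.25% higher, 3.02% lower). The members' log2 differences, knock-in minus wild type, lay between -0.29 and 0.30 with a median of -0.03, and the median of all tested genes was -0.01. Of the 39, 13 were above 0 and 26 below (33.3% above), where 43.6% of all tested genes were above 0. With each library rescaled to the same sum the split was 9 above and 30 below, and with median-of-ratios scaling 18 above and 21 below.

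The spread within genotypes was small for most members, so the intervals were narrow. Each interval is for 1 gene alone and rests on the spread between these libraries, which may be technical. Folds of intervals, here and below, are folds of FPKM + 1, which lie nearer to 1 than folds of FPKM for genes at low levels. The 95% interval of the fold lay between 0.8 and 1.25 for 33 of the 39 members, between 0.667 and 1.5 for 37 and between 0.5 and 2 for all 39. The 6 members with an interval beyond 1.25-fold were Tpp1, Atg7, Grn, Tfeb, Asah1 and Npc2. The median coefficient of variation between libraries was 4.35% in wild type and 7.28% in knock-in. Lrrk2 itself was at 10.88, 12.0 and 10.996 FPKM in wild type and at 12.1, 11.3 and 12.4 FPKM in knock-in, with overlapping groups, and a point change leaves its transcript in place.

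**Figure D2:**
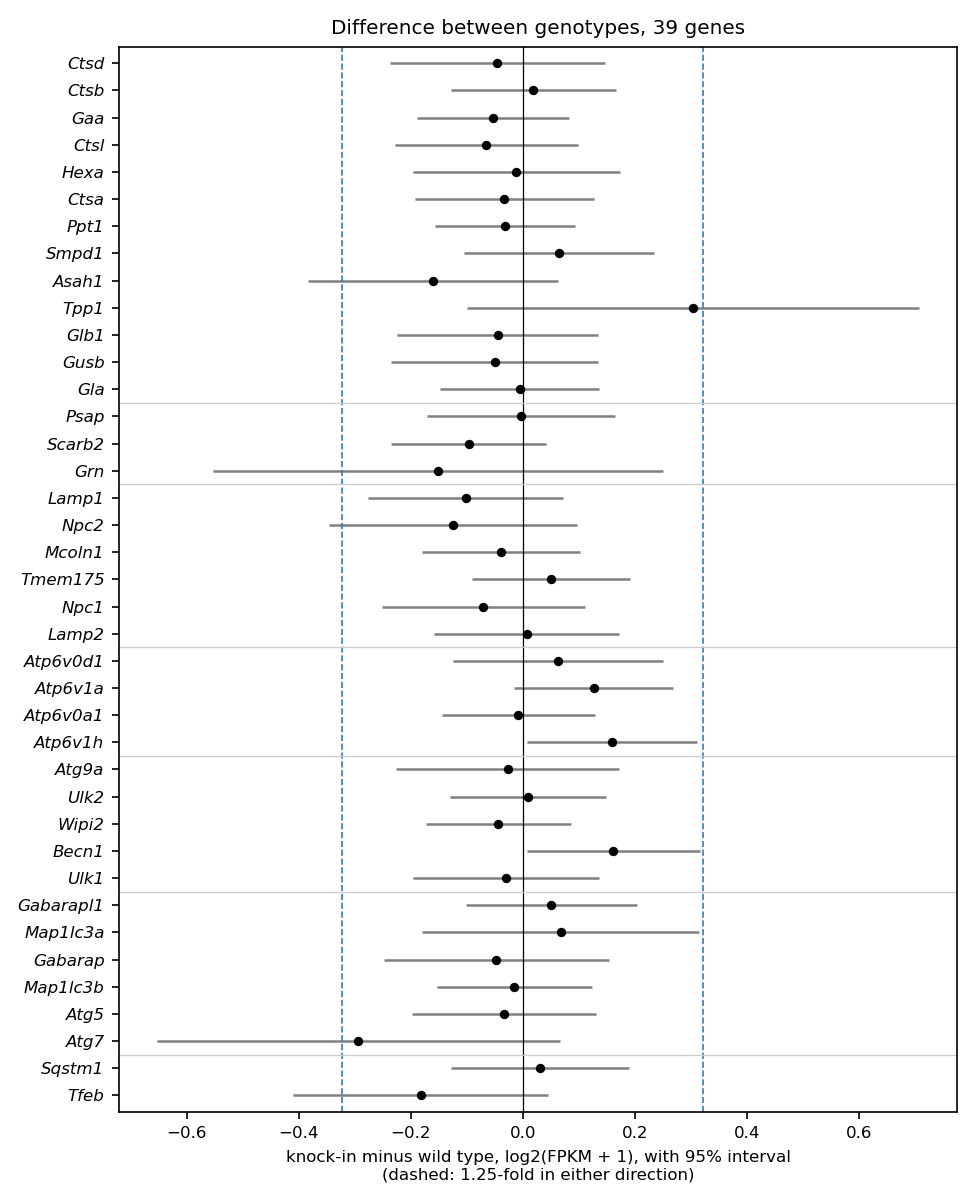
Difference of each gene between genotypes (knock-in minus wild type, log2(FPKM + 1)) with its 95% interval from limma, 3 libraries each, and dashed lines at 1.25-fold in either direction. For 33 of the 39 genes the interval lies within the dashed lines, and only those of Atp6v1h and Becn1 do not reach 0.

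Library knock-in replicate 3 stood apart in these genes. It held the lowest of the 6 levels for 20 of the 39 members, while over all tested genes it held the lowest level for 32.04%. Measured from the wild-type mean, the members' median log2 level was -0.09 in that library. It was 0.01 in knock-in replicate 1, 0.03 in knock-in replicate 2 and between -0.02 and 0.03 in the wild-type libraries. Over all tested genes knock-in replicate 3 was at -0.04. Without it the members divided into 22 above 0 and 17 below, the median turned to 0.0054, and 0 were called.

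Most glial markers and the blood markers were also low in that library. It held the lowest of the 6 levels for all 11 genes of myelinating oligodendrocytes, all 5 blood genes, 9 of 10 astrocyte genes and 7 of 10 microglia genes. Of the microglia genes, Cx3cr1 and P2ry12 went the other way and were highest there, at 8.11 and 13.7 FPKM. The summed level of 10 microglia genes was 259 FPKM there, 287 and 294 FPKM in the other knock-in libraries and between 277 and 297 FPKM in wild type. For 11 genes of myelinating oligodendrocytes the sum was 2607 FPKM in that library, 3059 and 3228 FPKM in the other knock-in libraries and 3219 to 3666 FPKM in wild type. The sum of 10 astrocyte genes was 633 FPKM there and 688 to 722 FPKM elsewhere, and that of 5 blood genes 761 FPKM there and 1136 to 1479 FPKM elsewhere. Markers of striatal projection neurons went the other way, at 3063 FPKM in that library and 2763 to 2912 FPKM in the others. All 6 libraries thus held these defining genes of the labelled tissue. Of the 10 genes, 9 were highest in knock-in replicate 3 and Ppp1r1b in wild type replicate 1. Of these lists, 4 of 10 microglia genes, 2 of 10 astrocyte genes and 1 of 11 myelinating genes had a log2 difference above 0 between genotypes, and 0 were called. Each gene of these lists had a mean above 1 FPKM. Their part in the members' levels was not tested.

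Other neighbouring cell types varied as well. The summed level of 7 cortical excitatory genes was 41.4 FPKM in knock-in replicate 1, 34.3 FPKM in knock-in replicate 2, 15.4 FPKM in wild type replicate 1 and between 4.09 and 5.17 FPKM elsewhere. Most of it was Slc17a7, at 29.9 FPKM in knock-in replicate 1 and 25.2 FPKM in knock-in replicate 2. Only 3 of these 7 genes reached the mean of 1 FPKM for testing, and all 7 were highest in knock-in replicate 1. For 6 choroid plexus genes the sum was 383 FPKM in wild type replicate 2 and between 6.54 and 21.8 FPKM elsewhere. Ttr alone was at 374 FPKM in wild type replicate 2, where all 6 genes were highest. Only 2 of these 6 reached the mean of 1 FPKM. All 7 ependyma genes had a difference below 0, with sums between 29.8 and 34.7 FPKM in wild type against 20.6, 31.3 and 22.3 FPKM in knock-in, and 0 were called. Their part in the members' levels was not tested either.

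**Figure D3:**
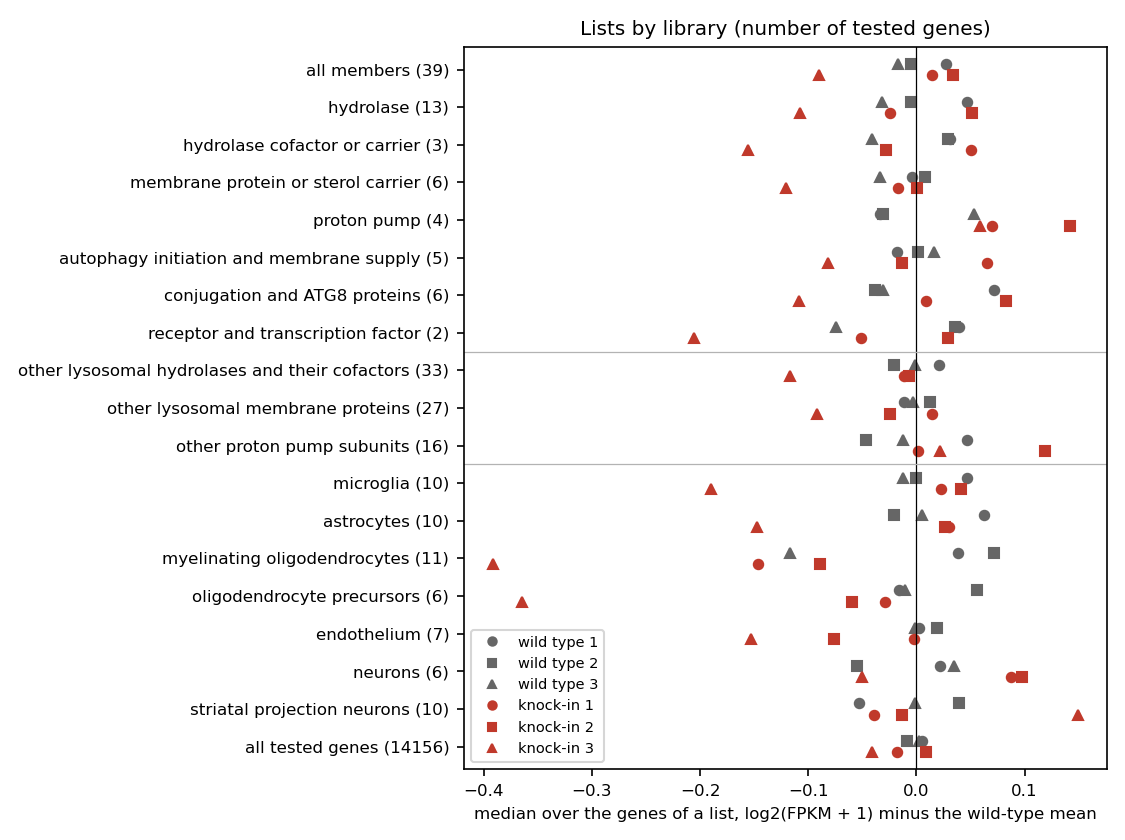
Median over the genes of each list in each library, as log2(FPKM + 1) minus the wild-type mean, for the members and their roles (top), other genes of the pathway (middle) and cell type markers with all tested genes (bottom). Knock-in replicate 3, the red triangle, lies lowest for the members, the hydrolases and the glial lists, and highest for striatal projection neurons.

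Among the hydrolases, Ctsd, the aspartic protease cathepsin D, was the most abundant. In replicates 1 to 3, the order used throughout, it stood at 167, 154 and 154 FPKM for wild type and at 153, 167 and 140.4 FPKM for knock-in, a log2 difference of -0.05 (SE 0.08, n = 3 each). The groups overlapped, with knock-in replicate 3 lowest. Ctsb, a cysteine protease, was next at a mean of 126 FPKM. Ctsl, another cysteine protease, was at 54.9, 53.9 and 53.4 FPKM in wild type and at 51.1, 56.0 and 48.0 FPKM in knock-in. Knock-in replicate 2 was above all wild-type libraries and the other 2 below them.

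Gaa, the acid alpha-glucosidase that degrades glycogen, was at 60.2, 57.5 and 59.6 FPKM in wild type and at 58.8, 57.2 and 54.8 FPKM in knock-in. The groups overlapped. Gla, the alpha-galactosidase that trims glycosphingolipids, was the least abundant member, at 2.36, 2.34 and 2.31 FPKM in wild type and 2.23, 2.42 and 2.32 FPKM in knock-in. Its interval of the fold ran from 0.903 to 1.10. Its low level was nonetheless closely repeated, with a coefficient of variation of 1.00% in wild type and 3.96% in knock-in.

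Asah1, the acid ceramidase, was at 13.4, 13.2 and 11.4 FPKM in wild type and at 11.7, 9.80 and 12.1 FPKM in knock-in. Its log2 difference of -0.16 (SE 0.10, adjusted p = 0.997 in limma, n = 3 each) was not called, and wild type replicate 3 lay below 2 of the knock-in libraries. Without knock-in replicate 2 the difference was -0.07. The rest of the hydrolases (Hexa, Ctsa, Ppt1, Smpd1, Glb1 and Gusb) had means between 3.56 and 32.7 FPKM and log2 differences between -0.05 and 0.06. Hexa and Glb1 degrade gangliosides, Smpd1 degrades sphingomyelin, Gusb degrades glycosaminoglycans, Ppt1 removes palmitate from proteins, and Ctsa is the carboxypeptidase that stabilises the Glb1 enzyme. In all, 3 of the 13 hydrolases had a difference above 0 and 10 below, and without knock-in replicate 3 the split was 8 and 5.

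Tpp1, the tripeptidyl peptidase lost in a neuronal ceroid lipofuscinosis, had the widest difference above 0 of all members, and its levels lay at separate heights. It was at 8.46, 8.81 and 13.9 FPKM in wild type and at 12.7, 12.4 and 13.2 FPKM in knock-in. Wild type replicates 1 and 2 were low, and wild type replicate 3 was the highest of all 6, so the groups overlapped. The log2 difference was 0.30 (SE 0.17, adjusted p = 0.997 in limma, n = 3 each), with an interval of the fold from 0.934 to 1.63. Without wild type replicate 3 it was 0.51 (adjusted p = 0.346) and without wild type replicate 1 it was 0.19, called in neither. GENCODE release M21 annotates 10 transcripts of Tpp1.

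Hydrolases need helpers. Psap, the precursor of the saposins that present sphingolipids to their enzymes, was the most abundant member, at 520.4, 499 and 509 FPKM in wild type and at 527, 523 and 475 FPKM in knock-in. Its ratio of means was 0.999. Scarb2, the LIMP-2 receptor that carries glucocerebrosidase to lysosomes, was at 20.0, 20.4 and 19.3 FPKM in wild type and at 18.4, 19.5 and 17.8 FPKM in knock-in, a log2 difference of -0.10 (SE 0.06). Knock-in replicate 2 lay inside the wild-type range.

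Grn encodes progranulin, a lysosomal protein abundant in microglia. It was at 14.4, 14.0 and 12.7 FPKM in wild type and at 15.2, 13.2 and 9.06 FPKM in knock-in. Knock-in replicate 1 was the highest library and knock-in replicate 3 the lowest. In the latter 7 of 10 microglia genes were at their lowest and 2 at their highest, and their part in the level of Grn was not tested. The log2 difference of -0.15 (SE 0.17) was 0.05 without that library and -0.30 without knock-in replicate 1.

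Of the membrane proteins, Lamp1, the main glycoprotein of the lysosomal membrane, was at 157, 156 and 152 FPKM in wild type and at 145, 157 and 133 FPKM in knock-in. Its log2 difference was -0.10 (SE 0.07), and leaving out a knock-in library gave -0.04 (replicate 3) or -0.16 (replicate 2). Lamp2, its relative that also serves chaperone-mediated autophagy, was at 5.17, 5.51 and 5.81 FPKM in wild type and 5.48, 5.17 and 5.94 FPKM in knock-in. The level of Lamp1 was between 22.4 and 30.4 times that of Lamp2.

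Npc2, the lumenal protein that hands cholesterol to the transporter NPC1, was at 37.8, 36.6 and 33.2 FPKM in wild type and at 32.4, 37.0 and 29.3 FPKM in knock-in. Knock-in replicates 1 and 3 were below the wild-type range and replicate 2 inside it. The log2 difference was -0.12 (SE 0.09), and leaving out a knock-in library gave -0.05 (replicate 3) or -0.21 (replicate 2). Npc1 had a mean of 7.77 FPKM, and Npc2 stood at 4.17 to 5.03 times its level. Mcoln1, the calcium channel TRPML1, and Tmem175, a lysosomal ion channel at a Parkinson's risk locus, had means of 9.35 and 8.97 FPKM and log2 differences of -0.04 and 0.05.

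The members whose libraries did not overlap between genotypes were 2 pump subunits and Becn1, all higher in knock-in. These are 3 of 39 (7.69%), where 9.51% of all tested genes did not overlap, 2.92% with knock-in higher and 6.58% with knock-in lower. Summed, general neuron markers did not overlap either. The sum of 6 such genes was 524, 493 and 519 FPKM in wild type and 541, 568 and 534 FPKM in knock-in, with 5 of 6 above 0 and 0 called. Of these, Snap25 and Syt1 did not overlap between genotypes singly, and their part in the 3 members' levels was not tested. Atp6v1a, the catalytic subunit that hydrolyses ATP, was at 27.9, 28.5 and 30.4 FPKM in wild type and at 31.1, 30.9 and 33.1 FPKM in knock-in. Atp6v1h, the regulatory subunit H, was at 10.97, 10.8 and 11.6 FPKM in wild type and at 11.9, 13.4 and 12.3 FPKM in knock-in. The gap between the highest wild-type and the lowest knock-in library was small for both beside the spread within each group.

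Their log2 differences were 0.13 for Atp6v1a (SE 0.06, unadjusted p = 0.073) and 0.16 for Atp6v1h (SE 0.07, unadjusted p = 0.0425), and limma's adjusted p was 0.997 for both. Neither was called in any of the 15 alternatives. With rescaling to the same sum 0 members had an unadjusted p under 0.05. The same 0 held without wild type replicate 1, wild type replicate 2 or knock-in replicate 3. Of the fits without 1 library, Atp6v1h stayed under 0.05 only in that without knock-in replicate 1. Atp6v0d1, a membrane-sector subunit, was at 108, 96.9 and 101 FPKM in wild type and at 104, 116 and 99.5 FPKM in knock-in. The groups overlapped. Atp6v0a1, the neuronal form of the proton-conducting subunit a, had a mean of 29.3 FPKM and a log2 difference of -0.01.

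Becn1 encodes Beclin 1, part of the lipid kinase complex that starts autophagosomes. It was at 10.1, 9.74 and 9.81 FPKM in wild type and at 10.4, 11.1 and 12.0 FPKM in knock-in. Every knock-in library was above every wild-type library, knock-in replicate 1 by the least. The log2 difference was 0.16 (SE 0.07, unadjusted p = 0.0428, adjusted p = 0.997 in limma). Of its exon bases, 3104 lie opposite Cntd1 on the other strand, and although the labels speak of stranded libraries, whether counting used the strand is not given in the sources used here. Like it, 14 other members share exon bases with a gene on the opposite strand, which leaves their levels uncertain if it did not. Cntd1 was at 0.762, 0.840 and 0.865 FPKM in wild type and 0.792, 0.703 and 0.654 FPKM in knock-in.

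**Figure D4:**
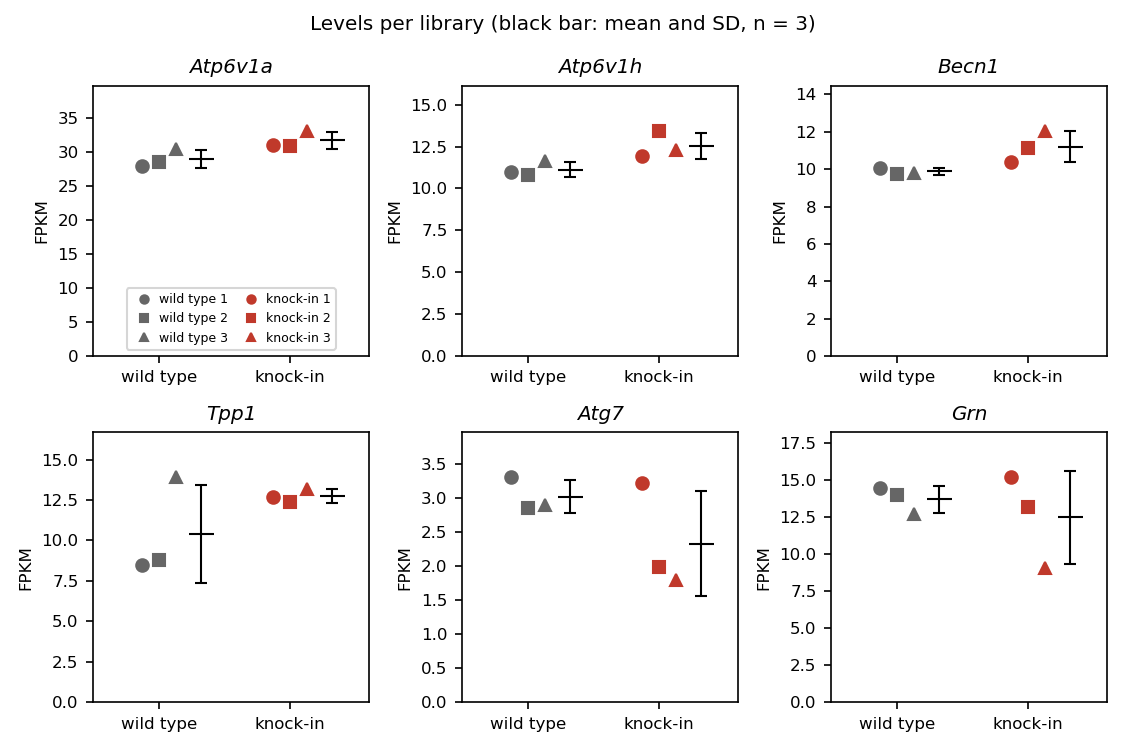
FPKM of Atp6v1a, Atp6v1h, Becn1, Tpp1, Atg7 and Grn in each library, from 0, with the mean and SD of 3 libraries as black bars. The genotypes do not overlap in the top row, by narrow gaps, while in the bottom row 1 or 2 libraries of a genotype lie away from the rest.

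The remaining genes of autophagosome initiation had log2 differences between -0.04 and 0.01. Atg9a, which brings lipid to the growing membrane, was the most abundant of them at 26.0, 26.2 and 26.3 FPKM in wild type. Knock-in replicates 1 to 3 had 29.3, 23.8 and 24.2 FPKM. The wild-type libraries differed by little and the knock-in libraries lay on both sides of them. Ulk1, the kinase that triggers autophagy on starvation, was the least abundant at 9.59, 10.01 and 10.1 FPKM in wild type and 10.4, 9.83 and 8.79 FPKM in knock-in. Its relative Ulk2 was 1.497 to 1.93 times as abundant, and Wipi2, which links the lipid signal to conjugation, had a mean of 10.9 FPKM. Atg9a shares 1832 exon bases with Gm29253 on the same strand, and how shared reads were assigned is not given. Gm29253 was at 1.37, 0.390 and 1.26 FPKM in wild type and at 0.0740, 1.45 and 1.41 FPKM in knock-in. Its part in the level of Atg9a was not tested.

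Autophagosome membranes are marked by ATG8 proteins, which are attached to lipid by enzymes that include Atg7 and Atg5. Gabarapl1 was the most abundant ATG8 member, at 197, 186 and 189.5 FPKM in wild type and at 189, 207 and 198 FPKM in knock-in. It took 53.1% to 57.3% of the summed FPKM of the 4 ATG8 members in a library, Map1lc3a 22.4% to 25.9%, Gabarap 17.6% to 19.6% and Map1lc3b 2.56% to 2.90%. The order of the 4 was the same in each library. Their log2 differences lay between -0.05 and 0.07.

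Atg7, the enzyme that activates ATG8 proteins, had the widest difference below 0 of all members and, like Tpp1, separate heights. It was at 3.30, 2.85 and 2.90 FPKM in wild type and at 3.21, 1.98 and 1.79 FPKM in knock-in. Knock-in replicates 2 and 3 were low, and knock-in replicate 1 was inside the wild-type range. The log2 difference was -0.29 (SE 0.15, adjusted p = 0.997 in limma, n = 3 each), with an interval of the fold from 0.636 to 1.05. It was -0.48 without knock-in replicate 1 (adjusted p = 0.506) and -0.18 without knock-in replicate 3 (adjusted p = 0.892). With 0.1 FPKM added in place of 1, the log2 difference over all 6 libraries was -0.40. GENCODE annotates 17 transcripts. Atg5 had a mean of 8.70 FPKM and a log2 difference of -0.03.

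Tpp1, Atg7 and Grn were the 3 members with a step of at least 1.3 times between neighbouring libraries in the order of levels, a size chosen after the values were seen. That is 7.69% of members, against 7.60% of the 11139 tested genes with a mean at least as high as that of the lowest member.

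Sqstm1, the cargo receptor p62 that is itself degraded by autophagy, was at 77.3, 73.6 and 70.3 FPKM in wild type and at 74.9, 79.6 and 71.6 FPKM in knock-in. The groups overlapped. Tfeb, the transcription factor that acts on the promoter element shown above, was at 3.17, 3.36 and 2.91 FPKM in wild type and at 2.80, 3.00 and 2.20 FPKM in knock-in. Knock-in replicate 3 was lowest, and knock-in replicate 2 lay inside the wild-type range. The log2 difference was -0.18 (SE 0.10, adjusted p = 0.997 in limma), and -0.09 without knock-in replicate 3. The 10 members with a TCACGTG match had a median log2 difference of -0.04 and the other members with a window one of -0.03.

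**Figure D5:**
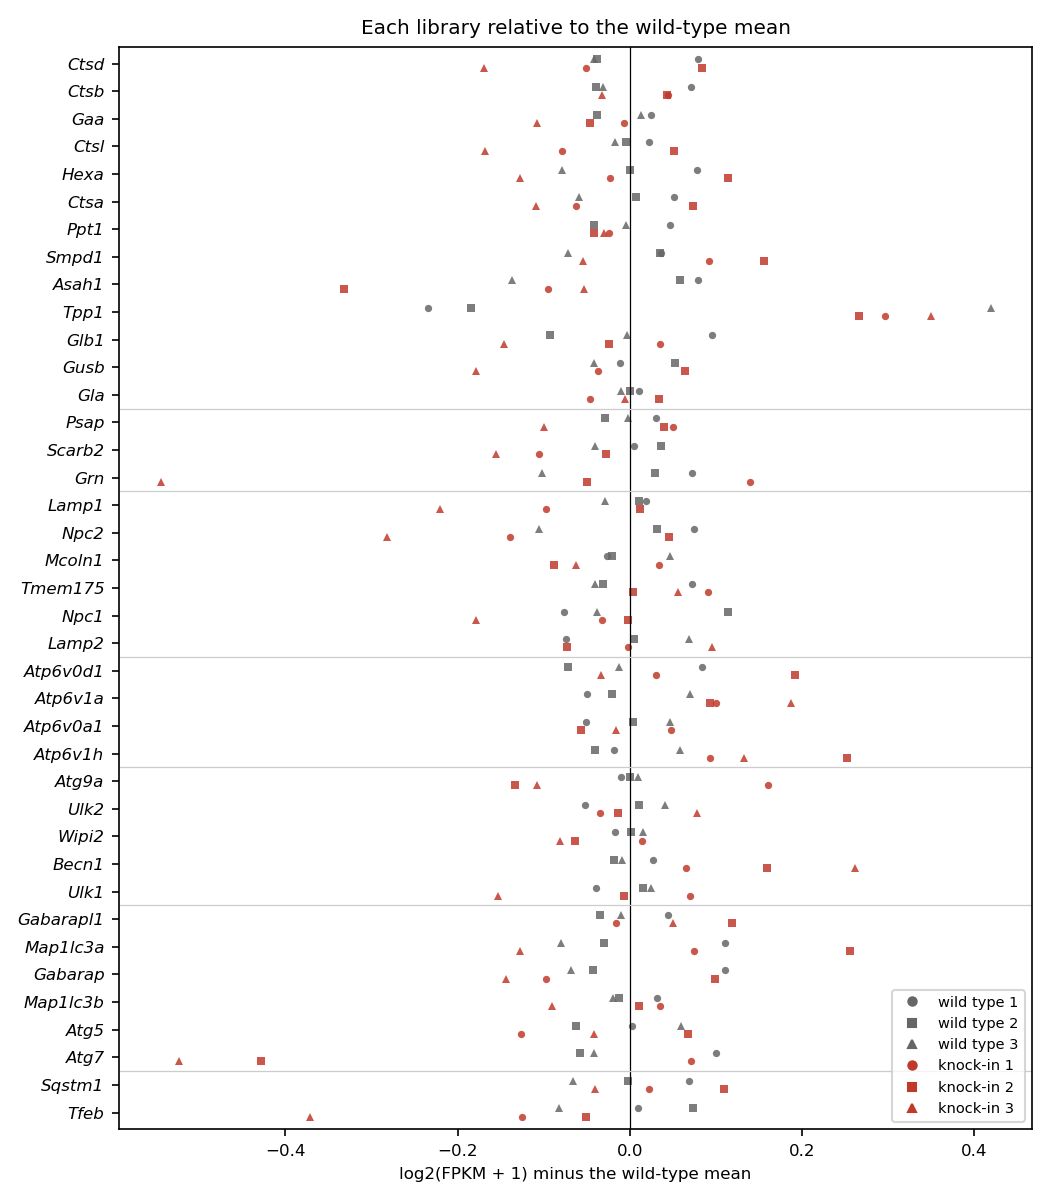
Each library relative to the wild-type mean of the same gene, as log2(FPKM + 1), wild type in grey and knock-in in red, with grey rules between roles. Knock-in replicate 3, the red triangle, is the lowest point for 20 of the 39 genes, and the widest spreads are those of Tpp1, Atg7, Grn, Tfeb and Asah1.

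Other genes of the pathway, 163 tested in 8 lists written from knowledge of the pathway, gave 0 calls. Of them 71 had a difference above 0 and 92 below, with a median of -0.02, and 5 passed an unadjusted p under 0.05, a share below the 4.27% of all tested genes. These 5 were 3 higher in knock-in (Atp6v0c, Atp6ap2 and Bnip3l) and 2 lower (Rubcn and Rilp). Among 33 other hydrolases and cofactors 11 were above 0 and 22 below, the 2 smallest unadjusted p-values being 0.172 for Gm2a, a ganglioside activator, and 0.179 for Dnase2a, a nuclease. Among 27 other membrane proteins 11 were above 0, and Laptm5 (unadjusted p = 0.0802) and Sidt2 (unadjusted p = 0.0817) came first, with log2 differences of -0.15 and -0.11.

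The proton pump had 16 further subunits, of which 10 were above 0 and 6 below. Atp6v0c, which forms the rotor ring of the membrane sector, was at 78.4, 73.3 and 81.8 FPKM in wild type and at 90.0, 95.6 and 98.8 FPKM in knock-in. GENCODE annotates 2 processed pseudogenes of Atp6v0c, and how reads shared with them were assigned is not given. The groups did not overlap, and the log2 difference was 0.28 (unadjusted p = 0.00415, adjusted p = 0.997 in limma). Atp6ap2, an accessory subunit that serves pump assembly, was at 41.6, 40.7 and 43.2 FPKM in wild type and at 46.2, 47.6 and 50.5 FPKM in knock-in, a log2 difference of 0.20 with the same adjusted p. Over all 20 subunits 13 were above 0 and 7 below, the log2 differences ran from -0.57 to 0.28, the median was 0.05 and 0 were called. Leaving out knock-in replicate 2 gave a median of 0.0085, and it was 0.03 without wild type replicate 2 or 3.

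In the autophagosome list of 32 genes, 11 were above 0 and 21 below. Rubcn, an inhibitor of autophagosome maturation, was at 10.8, 11.2 and 10.7 FPKM in wild type and at 10.4, 6.36 and 5.77 FPKM in knock-in. Knock-in replicate 1 lay just under the wild-type range and the other 2 far below it, the same 2 libraries that were low for Atg7. Its log2 difference of -0.52 was not called with all 6 libraries (adjusted p = 0.997 in limma) and was called on leaving out knock-in replicate 1 alone, at -0.75 (adjusted p = 0.0387). It was -0.43 without knock-in replicate 2 (adjusted p = 0.853), -0.37 without knock-in replicate 3 (adjusted p = 0.870) and between -0.50 and -0.53 without a wild-type library, called in none of these. Pik3r4, a subunit of the Beclin 1 complex, followed at -0.12.

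Bnip3l, a mitophagy receptor, was at 17.9, 17.2 and 19.4 FPKM in wild type and at 20.3, 21.0 and 21.9 FPKM in knock-in, a log2 difference of 0.20 (adjusted p = 0.997 in limma), and Ncoa4, the ferritin receptor, stood at -0.29. Of 12 receptors 7 were above 0. Of 16 genes of lysosomal signalling and transcription 10 were above 0, with the smallest p-values for Lamtor5 at 0.10 and Zkscan3 at -0.40. Of 20 genes of delivery, positioning and fusion 9 were above 0, with the smallest p-values for Rilp at -0.20, a Rab7 effector, and Gnptab at -0.12, which makes the mannose 6-phosphate tag. Of 7 genes of the LRRK2 response at stressed lysosomes 2 were above 0, with Rab29 and Rilpl2 first at -0.10 and -0.09.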

How the data were processed

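The deposited table holds 1 FPKM value per gene for each library, as its file header shows. The submitters' processing notes name HISAT2, StringTie, SAMtools and FastQC, without versions or roles. The libraries were stranded, per the labels. The genome build, the gene annotation and whether counting used the strand were not given in the sources used here. Columns were matched to samples by code. No value was 0, the lowest being 1e-06 FPKM, so a value above 0 need not mean that a gene was detected. Depth is unknown because FPKM carries no read counts, so precision comes from the spread between libraries.

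From these FPKM values as the authors deposited them, log2(FPKM + 1) was computed. Genes whose mean reached 1 FPKM entered limma 3.58.1 (R 4.3.3, trended and robust prior variance, two-sided, Benjamini-Hochberg adjustment over all tested genes). The script was tested on simulated data. The members and lists were chosen with earlier results of these data known. Values in every library are given for members called, for the 12 members with the smallest p, for members whose libraries do not overlap, and for the highest and lowest member of each role. In each further list the 2 genes with the smallest p are named. The fit of Rubcn without 1 library and the genes Cntd1, Cap1 and Gm29253 were picked after their values were seen. Gene positions, transcripts and exon overlaps are from GENCODE release M21 (GRCm38), which matched all 39 identifiers, and promoters from RefSeq. Alternatives changed the pseudocount, minimum, scaling, variance model, replicate block and the libraries included.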

Additional observations from a re-analysis of the deposited data

How the results depend on the processing

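In all 15 alternatives 0 members were called, and the lowest adjusted p of a member in limma was 0.346 (Tpp1, without wild type replicate 3). Over all tested genes 3 were called, and between 3 and 15 on leaving out 1 library: 3 without wild type replicate 1 or 3, 8 without wild type replicate 2, and 11, 15 and 6 without knock-in replicates 1, 2 and 3. Of the 39 members, 19 kept the sign of their difference in every alternative that tested them. A minimum mean of 5 FPKM tested 35 members. The titles number replicates 1 to 3 in both genotypes. Deviations of same-numbered libraries correlated at -0.01, -0.07 and 0.19 over genes. These lay within the range of the pairs with unlike numbers, -0.18 to 0.21. With the replicate block 2 genes and 0 members were called, and 1 member passed an unadjusted p under 0.05, Atg7.

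Scaling turned the sign of 9 members. With rescaling to the same sum, Ctsb was at -0.0259, Lamp2 at -0.0310, Sqstm1 at -0.0133 and Ulk2 at -0.0320. With median-of-ratios scaling, Hexa was at 0.00761, Gla at 0.00826, Psap at 0.0169, Atp6v0a1 at 0.0112 and Map1lc3b at 0.00348. With quantile normalization, Gla was at 0.0197 and Psap at 0.0370.

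Leaving out 1 library turned the sign of 20 members. The log2 difference then ranged from -0.0859 to 0.00542 for Ctsa, from -0.00146 to 0.0537 for Ctsb, from -0.110 to 0.0162 for Ctsd, from -0.0751 to 0.0457 for Hexa and from -0.0258 to 0.0141 for Gla. It ranged from -0.0912 to 0.00533 for Glb1, from -0.108 to 0.0136 for Gusb, from -0.0302 to 0.0448 for Psap, from -0.297 to 0.0451 for Grn and from -0.0376 to 0.0466 for Lamp2. The range was from -0.0363 to 0.0155 for Atp6v0a1, from -0.00173 to 0.111 for Atp6v0d1, from -0.00909 to 0.0661 for Sqstm1, from -0.0270 to 0.165 for Map1lc3a and from -0.0396 to 0.0228 for Map1lc3b. It ran from -0.121 to 0.00813 for Gabarap, from -0.0838 to 0.0128 for Atg5, from -0.120 to 0.0262 for Atg9a, from -0.0801 to 0.0313 for Ulk1 and from -0.0242 to 0.0324 for Ulk2. A further 15 members kept their sign but moved by over 1.5 times on leaving out some library, and 4 did neither (Scarb2, Atp6v1a, Atp6v1h and Becn1). The cause was not tested.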

Other observations

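Ppt1 shares 129 exon bases with Cap1, an actin regulator on the other strand, and the 2 genes behaved differently. Cap1 was at 104, 48.5 and 98.0 FPKM in wild type and at 43.6, 45.4 and 103 FPKM in knock-in, close to 1 of 2 levels in each library, and both levels occurred in both genotypes. Ppt1 stood between 25.2 and 26.9 FPKM in the 6 libraries, the member with the smallest spread within knock-in (coefficient of variation 0.654%). Of the 39 members, 15 share exon bases with a gene on the other strand and 4 with a gene on the same strand (Ctsd, Ctsl, Glb1 and Atg9a). Strand cannot part the reads of these 4 overlaps, which leaves those levels uncertain too.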
